A study of Arabidopsis thaliana with 4 samples.

Results

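The TIR1/AFB auxin receptor genes and the *MIR393* loci are 6 of the 37899 genes annotated on the nuclear chromosomes of Arabidopsis thaliana. They were chosen by their TAIR10 locus identifiers and not by any measured value. The receptor genes are *TIR1* (AT3G62980), *AFB1* (AT4G03190, *GRH1* in RefSeq), *AFB2* (AT3G26810) and *AFB3* (AT1G12820), and the loci of their regulator are *MIR393A* (AT2G39885) and *MIR393B* (AT3G55734). Leaves of 21-day-old plants grown on soil under long days at a constant temperature were used for RNA Pol II ChIP-seq, in which DNA bound to RNA Pol II is recovered with an antibody and sequenced. WT plants (Col-0) and plants with the *hyl1-2* allele, a T-DNA insertion in *HYL1* that is the only mutant allele examined, each gave 1 library with an antibody against total RNA Pol II and 1 input library of chromatin without antibody.

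*TIR1* and its relatives are F-box proteins of SCF ubiquitin ligases that bind auxin together with an Aux/IAA repressor. The repressor is then ubiquitinated and degraded, which frees the auxin response factors to act on their target genes. miR393 guides the cleavage of the receptor mRNAs, is induced when leaf cells sense bacterial flagellin, and so links auxin perception to immunity and to leaf and root growth. *HYL1* is a double-stranded RNA binding protein that helps DCL1 to cut miRNA precursors at the right place, and the study asked whether its loss also changes where RNA Pol II sits on genes.

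The mature miR393 and the paired sites in the receptor genes are shown first because they tie the 2 kinds of loci together. All sequences were read from the RefSeq copy of TAIR10, 5′ to 3′ on the strand of the gene, and written as DNA. *MIR393A* lies on the plus strand of chromosome 2 (chr2:16652101-16652233) and *MIR393B* on the plus strand of chromosome 3 (chr3:20691647-20691806). Both carry the same 22-base miR393 on the 5′ arm, with 0 differences, while the 21-base products of the 3′ arms differ at 1 base. In the mature sequences the capitals mark the seed, bases 2 to 8.
MIR393A-5p and MIR393B-5p: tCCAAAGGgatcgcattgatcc
MIR393A-3p: aTCATGCTatctctttggatt
MIR393B-3p: aTCATGCGatctctttggatt
The annotated stem-loops have a length of 133 bp and 160 bp and are printed with miR393 in capitals.
MIR393A: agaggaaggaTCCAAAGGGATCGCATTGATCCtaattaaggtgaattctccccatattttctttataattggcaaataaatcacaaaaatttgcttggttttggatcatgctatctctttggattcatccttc
MIR393B: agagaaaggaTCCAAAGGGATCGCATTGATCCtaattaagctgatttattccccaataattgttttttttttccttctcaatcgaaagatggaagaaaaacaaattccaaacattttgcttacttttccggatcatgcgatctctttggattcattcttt

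The stretch of each receptor gene closest to the complement of miR393 lay in the last exon and in the coding sequence. The 4 sites are shown with capitals at the bases that differ from the complement of miR393, since the receptors differ only there.
TIR1 (chr3:23273727-23273748, minus strand, exon 3 of 3): gAGAcaatgcgatccctttgga
AFB1 (chr4:1405341-1405362, minus strand, exon 3 of 3): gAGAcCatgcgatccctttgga
AFB2 (chr3:9870237-9870258, plus strand, exon 3 of 3): gAaAcaatgcgatccctttgga
AFB3 (chr1:4369085-4369106, minus strand, exon 4 of 4): gAaAcaatgcgatccctttgga
*AFB2* and *AFB3* shared 1 site sequence with 2 differences from the complement, *TIR1* had 3 and *AFB1* had 4. Of 27438 protein-coding genes searched in their transcripts, 8 held a stretch with 4 or fewer differences. Each of the others had 4 differences, and 1 of them was *bHLH77* (AT3G23690), which encodes a basic helix-loop-helix transcription factor. *AFB4* and *AFB5*, the auxin receptors of a second branch of the family, and *COI1*, the related jasmonate receptor, had at best 7, 8 and 8 differences. Over their coding sequences *AFB2* and *AFB3* were 81.8% identical and *TIR1* and *AFB1* 68.2%, while the other pairs of the 4 receptors were between 58.6% and 60.5% identical. These similarities did not blur the read counts, since 0 to 2 of the 2775 to 3367 reads over a receptor gene, all libraries together, had more than 1 place in the genome.

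For each gene the values are the reads in a window scaled to library size (RPM) in ChIP over the same in input, a ratio in which the length of the gene largely cancels, and the fold change is that ratio in *hyl1-2* over the ratio in WT. Fold changes above 1.2 or below 0.8 were counted where each library had at least 10 reads in the window. The 95% intervals in parentheses come from the 4 read counts and cover counting error only. With 1 library per condition there is no replicate check of any difference between the genotypes, no test was possible and no p-value is given. Leaves hold many cell types, so a lower level can be fewer cells that use a gene or less RNA Pol II per cell, which cannot be told apart. Neither can be told apart from a difference between the libraries in how well the antibody enriched RNA Pol II, which was not tested.

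The libraries held 17734005 to 37717174 reads. A stretch of 20 bp in *HYL1* had 0 reads in the *hyl1-2* libraries, against 12 and 26 reads in WT input and ChIP. The WT ChIP library did not put the leaf genes examined above those of other organs as a group. In WT the ratio was 0.626 at *RBCS1A*, 0.872 at *RCA* and 1.31 at *LHCB1.1*, genes of leaf photosynthesis, against 1.62 at *CRA1* and 2.31 at *SESA1*, which encode seed storage proteins, and in *hyl1-2* the photosynthesis genes stood at 2.69, 1.12 and 1.69 and the seed genes at 0.992 and 1.12. Of the other genes checked, *PYK10* (root) was at 1.01 in WT and 1.05 in *hyl1-2*, and the flower genes *AP3* and *AG* were at 0.818 and 0.551 in WT and 0.789 and 0.494 in *hyl1-2*. In WT, *AG* was thus below all 3 leaf genes and *AP3* below *RCA* and *LHCB1.1*. The middle 90% of protein-coding genes reached from 0.581 to 1.69 in WT and from 0.716 to 2.06 in *hyl1-2*. Both ends of the range were higher in *hyl1-2*. The part of these differences between the libraries in the results on the receptors was not tested, and each count of members is given beside the share of all genes that passed the same threshold.

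Over the annotated genes ChIP over input was higher in *hyl1-2* at *AFB2*, *AFB3* and *TIR1* and not at *AFB1*. The fold change was 1.52 (1.31 to 1.77) for *AFB2*, 1.37 (1.17 to 1.61) for *AFB3*, 1.28 (1.11 to 1.47) for *TIR1* and 0.927 (0.791 to 1.09) for *AFB1*. Thus 3 of 4 receptor genes were above 1.2 and 0 below 0.8, where 25.9% of 27441 protein-coding genes were above 1.2 and 21.4% below 0.8. *TIR1* was also above 1 under each alternative, but its interval reached 0.988 when the libraries were scaled on windows far from genes (fold change 1.14), a scaling that also moves the shares of all genes to 19.0% above and 40.0% below.

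*AFB2*, on the plus strand of chromosome 3 (chr3:9867652-9870782), held 499 and 642 input reads and 788 and 968 ChIP reads, WT first in each pair. These gave a ratio of 0.743 (0.664 to 0.831) in WT, below input, and of 1.13 (1.02 to 1.25) in *hyl1-2*, above input. *AFB3*, on the minus strand of chromosome 1 (chr1:4368760-4371298), held 365 and 498 input reads and 880 and 1032 ChIP reads, for ratios of 1.13 (1.00 to 1.28) and 1.56 (1.40 to 1.73). *AFB3* was at or above input in both genotypes, and in *hyl1-2* its ratio was at the 90.8th percentile of protein-coding genes. *TIR1*, the founding member of the family, lies on the minus strand of chromosome 3 (chr3:23273065-23276630) and held 527 and 716 input reads and 1018 and 1106 ChIP reads, for ratios of 0.908 (0.818 to 1.01) and 1.16 (1.06 to 1.27). *AFB1*, on the minus strand of chromosome 4 (chr4:1404887-1407402), held 391 and 517 input reads and 1120 and 860 ChIP reads, for ratios of 1.35 (1.2 to 1.51) and 1.25 (1.12 to 1.39). *AFB1* was the only receptor gene with a higher ChIP RPM in WT (29.7) than in *hyl1-2* (28.4). The inputs of the 2 genotypes differed little over these genes, with *hyl1-2* over WT between 1.00 and 1.06.

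The order of the receptor genes differed between the genotypes. In WT it was *AFB1*, *AFB3*, *TIR1*, *AFB2*, and each gene was higher than the next by 1.19-fold (1.01 to 1.41), 1.25-fold (1.06 to 1.47) and 1.22-fold (1.05 to 1.43). In *hyl1-2* *AFB3* came first, 1.25-fold (1.07 to 1.45) above *AFB1*, whereas *AFB1* and *TIR1* (1.08-fold, 0.933 to 1.24) and *TIR1* and *AFB2* (1.02-fold, 0.893 to 1.18) could not be told apart by their counts. Of the 6 pairs of fold changes, the 3 pairs with *AFB1* differed beyond counting error, with a quotient of 1.38 (1.11 to 1.70) for *TIR1* over *AFB1*, 0.608 (0.489 to 0.757) for *AFB1* over *AFB2* and 0.676 (0.539 to 0.848) for *AFB1* over *AFB3*. The quotients among *TIR1*, *AFB2* and *AFB3* were 0.838 (0.682 to 1.03), 0.930 (0.750 to 1.15) and 1.11 (0.891 to 1.39). These intervals are not adjusted for the number of pairs.

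**Figure D1:**
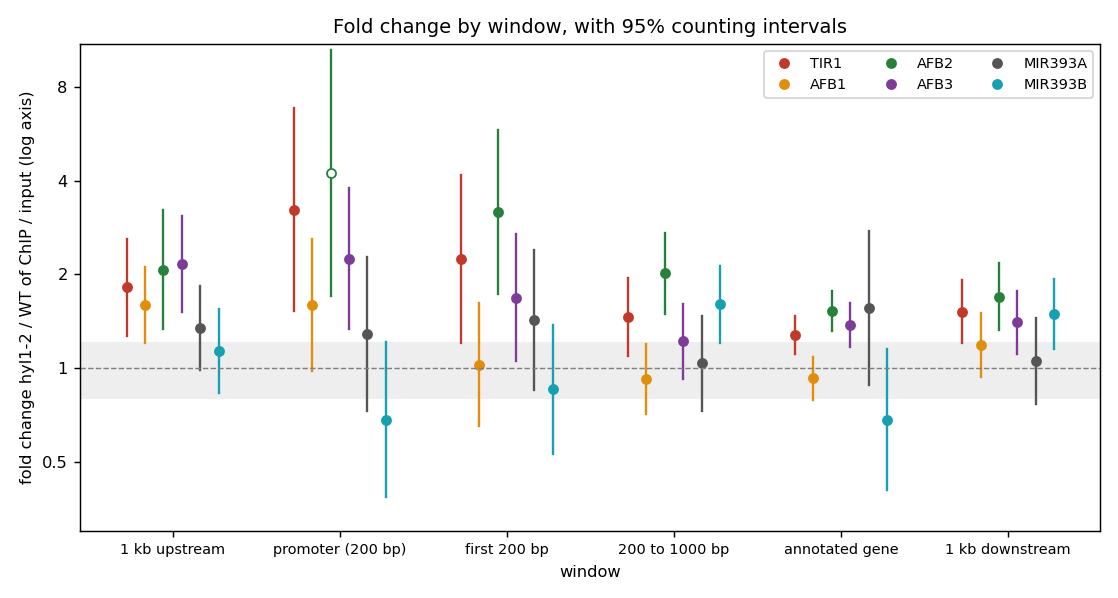
Fold change of ChIP over input in *hyl1-2* against WT (log axis) for the 6 genes in 6 windows, with vertical lines for the 95% counting interval. The grey band runs from 0.8 to 1.2, the open circle marks *AFB2* in the promoter window, where WT ChIP held 7 reads, and *TIR1*, *AFB2* and *AFB3* lie above 1 in every window while *AFB1* lies near 1 from the first 200 bp to the end of the gene.

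Upstream of the genes the fold change was larger, and the ratios were low. In the promoter window, the 200 bp before the annotated 5′ end, *AFB2* held 55 and 74 reads in WT and *hyl1-2* input but 7 and 25 in ChIP. The ratio was thus 0.0598 (0.0273 to 0.131) in WT and 0.254 (0.161 to 0.399) in *hyl1-2*, so the window held fewer ChIP reads than input predicts in both genotypes. Its fold change of 4.24 (1.71 to 10.5) rests on those 7 reads, is under the minimum of 10 and was left out of the counts. The window is shown as the one with the lowest WT ratio among the 6 genes (chr3:9867452-9867651, plus strand).
AFB2 promoter: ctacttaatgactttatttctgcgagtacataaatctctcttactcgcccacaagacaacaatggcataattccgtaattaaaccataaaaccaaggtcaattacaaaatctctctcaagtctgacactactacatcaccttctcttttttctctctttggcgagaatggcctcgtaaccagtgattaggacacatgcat

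*TIR1* held 36 and 47 input reads and 14 and 37 ChIP reads in this window, for ratios of 0.183 (0.0986 to 0.339) and 0.591 (0.384 to 0.909). *AFB3* held 68 and 70 input reads and 40 and 58 ChIP reads, for ratios of 0.277 (0.187 to 0.409) and 0.622 (0.439 to 0.881). *AFB1* held 63 and 65 input reads and 64 and 66 ChIP reads, for ratios of 0.478 (0.337 to 0.676) and 0.762 (0.541 to 1.07). All of these WT ratios were below the median of protein-coding promoters, 0.521. In 200 bp windows at least 1000 bp from any gene the median was 0.61 in WT and 0.64 in *hyl1-2*. Of the receptor promoters, only that of *AFB1* in *hyl1-2* was above this level. For the others a gain of RNA Pol II above the level of such windows was therefore not shown. The fold changes were 3.23 (1.52 to 6.86) for *TIR1*, 2.25 (1.33 to 3.79) for *AFB3* and 1.60 (0.979 to 2.60) for *AFB1*. All 3 receptor promoters with enough reads were above 1.2, but so were 58.6% of 26437 protein-coding promoters, with 11.7% below 0.8 and a median of 1.33, so a rise here is not particular to the receptors. With division by the median of windows of the same GC content, which leaves 36.6% of promoters above 1.2 and 31.7% below 0.8, the fold change of *AFB1* was 1.13 (0.695 to 1.84).

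Farther upstream, ChIP reads were almost missing before *AFB2*. In the bins from 500 to 200 bp before its 5′ end, WT ChIP held 1, 0 and 3 reads per 100 bp against 43, 39 and 42 in WT input, and *hyl1-2* ChIP held 3, 3 and 4 against 60, 54 and 46. Over the whole 1 kb upstream, ChIP over input of *AFB2* was 0.124 (0.0873 to 0.175) in WT and 0.256 (0.195 to 0.336) in *hyl1-2*, near the 2nd percentile of protein-coding genes in both. Both values were also below the medians of the 200 bp windows far from genes, 0.61 in WT and 0.64 in *hyl1-2*. Why ChIP reads were fewer here than in such windows was not tested. The GC content of that flank was 28.1%, and over all protein-coding genes the ratio followed the GC content with a Spearman correlation of 0.474 in WT and 0.470 in *hyl1-2*. The fold change of the 1 kb upstream was 2.07 (1.33 to 3.22) for *AFB2*, 2.16 (1.51 to 3.09) for *AFB3*, 1.82 (1.27 to 2.60) for *TIR1* and 1.59 (1.2 to 2.11) for *AFB1*. It was above 1.2 in 4 of 4 receptor genes and in 43.4% of protein-coding genes. The flank of *AFB1* reaches into AT4G03200, a divergent gene whose annotated 5′ end lies 756 bp away and whose own fold change was 0.818 (0.721 to 0.928). No other gene is annotated within 1 kb upstream of a receptor gene.

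Past the 5′ end the receptors differed in how far the rise went on. In the first 200 bp, *AFB2* held 23 and 53 ChIP reads over 56 and 65 input reads, a fold change of 3.17 (1.73 to 5.81). *TIR1* held 23 and 51 ChIP reads over 43 and 68 input reads, a fold change of 2.24 (1.2 to 4.17), and *AFB3* held 60 and 78 over 64 and 79, a fold change of 1.68 (1.05 to 2.69). *AFB1* held 101 and 85 over 55 and 72, a fold change of 1.03 (0.652 to 1.62). Its WT ratio of 0.863 was above the genome median of 0.743, while those of *AFB3* (0.441), *TIR1* (0.252) and *AFB2* (0.193) were below it. Above 1.2 were 3 of 4 receptor genes and 48.4% of protein-coding genes. From 200 to 1000 bp the fold change was 2.02 (1.5 to 2.72) for *AFB2*, 1.46 (1.09 to 1.94) for *TIR1*, 1.22 (0.925 to 1.61) for *AFB3* and 0.922 (0.711 to 1.2) for *AFB1*, and 30.3% of protein-coding genes were above 1.2. The interval of *AFB3* thus held 1 in this window, and in the first 200 bp it did so too when scaled on windows far from genes (0.936 to 2.40) or after the GC correction (0.911 to 2.34). For *TIR1* it held 1 in the first 200 bp with reads counted by their midpoint (0.808 to 5.04) and from 200 to 1000 bp when scaled on windows far from genes (0.973 to 1.73). *AFB2* kept its interval above 1 in both windows under all 7 alternatives. From 200 to 1000 bp *AFB2* differed beyond counting error from its closest relative *AFB3* by a quotient of 1.65 (1.1 to 2.49), *AFB1* over *AFB2* gave 0.457 (0.307 to 0.679) and *TIR1* over *AFB1* 1.58 (1.07 to 2.33). Of 33 such quotients between receptor genes in windows other than the whole gene, 6 had an interval without 1.

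**Figure D2:**
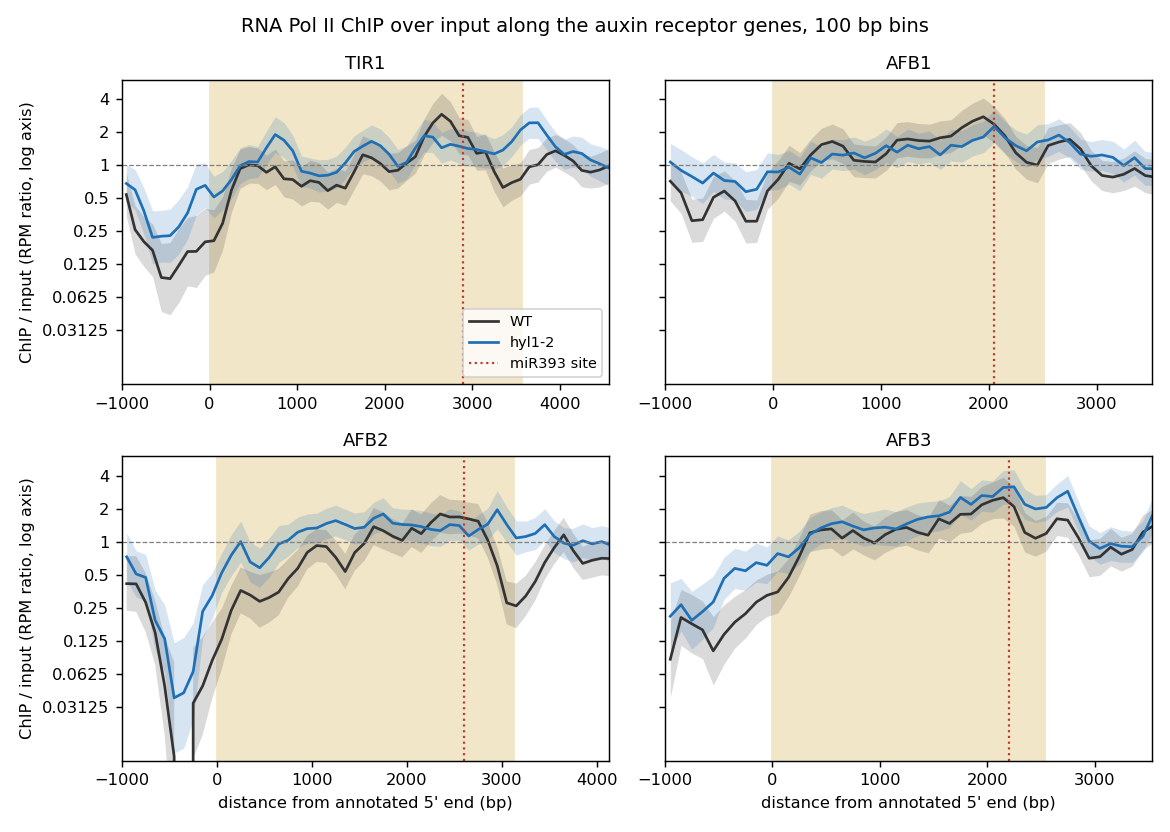
ChIP over input (RPM ratio, log axis) in bins of 100 bp along the receptor genes and 1 kb on each side, for WT (black) and *hyl1-2* (blue), with shading for the 95% counting interval, a pale band for the annotated gene and a dotted line at the miR393 site. Bins with fewer than 10 reads are drawn as well, and the line breaks off where WT ChIP of *AFB2* held 0 reads. The blue line runs above the black one before the 5′ end of all 4 genes, and along *AFB2* the lines meet in the 3′ part of the gene and part again at its end.

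Along *AFB2* the difference was smaller in the 3′ part than in the 5′ part, except in the last bins of the gene, where it was large again. In 3 equal parts of the gene the fold change was 2.03 (1.54 to 2.67), 1.59 (1.26 to 2.02) and 1.25 (0.984 to 1.59), and the WT ratio went from 0.412 through 0.875 to 1.04 while that of *hyl1-2* went from 0.836 through 1.39 to 1.3. The fold change of the last 500 bp was 0.477 times that of the first 200 bp (0.240 to 0.946). *TIR1* gave 1.43, 1.29 and 1.17 in its 3 parts, *AFB3* 1.28, 1.28 and 1.41 and *AFB1* 0.919, 0.908 and 0.933. For *TIR1*, *AFB1* and *AFB3* the same comparison of the last 500 bp with the first 200 bp gave intervals that included 1. Of the 17 such quotients between windows of a receptor gene with enough reads, 2 had intervals without 1. The other was that of the region from 200 to 1000 bp against the promoter in *AFB3* (0.543, 0.300 to 0.982).

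The highest level of each receptor gene lay in its 3′ part, which also holds the miR393 site. The site starts 2882 bp (*TIR1*), 2040 bp (*AFB1*), 2585 bp (*AFB2*) and 2192 bp (*AFB3*) from the 5′ end. In WT the highest bin of *TIR1* was 2.90, from 2600 to 2700 bp, and that of *AFB1* was 2.76, from 1900 to 2000 bp. The highest WT bin was 2.52 for *AFB3*, from 2100 to 2200 bp, and 1.79 for *AFB2*, from 2300 to 2400 bp. In *hyl1-2* the highest bin of the gene was 3.16 for *AFB3*, from 2200 to 2300 bp, 2.25 for *AFB1*, from 2000 to 2100 bp, 2.09 for *TIR1*, from 3500 to 3600 bp, and 1.96 for *AFB2*, from 2900 to 3000 bp. A rise along the gene was also the rule elsewhere, since over protein-coding genes the median ratio in WT was 0.743 in the first 200 bp and 1.05 in the last 500 bp. Most bins pointed the same way. *hyl1-2* was higher in 42 of 44 bins of *AFB3* that had enough reads, in 46 of 52 of *TIR1*, in 39 of 46 of *AFB2* and in 27 of 46 of *AFB1*. Neighbouring bins share reads and are not independent. Bins along other genes were not counted, so no share over all genes stands beside these numbers of bins or those by the interval. The interval lay above 1 in 20 bins of *AFB2*, 13 of *TIR1*, 10 of *AFB3* and 3 of *AFB1*. It lay below 1 in 1 bin, the highest WT bin of *TIR1*, where the fold change was 0.494 (0.287 to 0.852). That bin held 23 input reads in WT, the fewest of any bin of the gene, and 57 in *hyl1-2*. Its ChIP coverage scaled to library size was nearly equal, 2.585 in WT and 2.501 in *hyl1-2*, against input coverage of 0.773 and 1.605. The low fold change of this bin thus lay mostly in the inputs, and the low WT input also raised its WT ratio of 2.90.

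At the 3′ end *TIR1* and *AFB2* showed the largest bin differences inside the gene. In the last bin of *TIR1*, from 3500 to 3600 bp, the fold change was 2.82 (1.76 to 4.52), and *AFB2* reached 5.18 (2.89 to 9.27) from 3000 to 3100 bp, where the WT ratio was 0.277 and that of *hyl1-2* was 1.43. From the miR393 site to the 3′ end the fold change was 1.58 (1.1 to 2.29) for *AFB3*, 1.45 (1.07 to 1.97) for *AFB2*, 1.43 (1.08 to 1.90) for *TIR1* and 1.15 (0.826 to 1.59) for *AFB1*. Before the site it was 1.29 (1.08 to 1.54), 1.47 (1.25 to 1.73), 1.17 (1.00 to 1.37) and 0.880 (0.739 to 1.05), so the intervals on both sides of the site overlapped in each gene. The 1 kb downstream gave 1.69 (1.32 to 2.17) for *AFB2*, 1.52 (1.2 to 1.92) for *TIR1*, 1.40 (1.11 to 1.77) for *AFB3* and 1.19 (0.936 to 1.5) for *AFB1*. Above 1.2 were 3 of 4 receptor genes there and 42.4% of protein-coding genes.

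The genes next to the receptors bear on these downstream values, because ChIP reads do not tell on which strand RNA Pol II moved. AT3G62970 ends 72 bp from the end of *TIR1* (fold change 1.23, 1.05 to 1.45), AT4G03180 overlaps the end of *AFB1* by 51 bp (1.24, 1.02 to 1.5) and AT1G12810 that of *AFB3* by 63 bp (1.32, 1.08 to 1.62). In *AFB1* and *AFB3* an annotated antisense lncRNA also covers the miR393 site. These were AT4G04455, which overlaps *AFB1* by 423 bp (0.866, 0.620 to 1.21), and AT1G04977, which overlaps *AFB3* by 638 bp (1.38, 1.02 to 1.87). Further lncRNAs lie 594 bp after *AFB1* (AT4G04445, 1.23, 0.939 to 1.60) and 266 bp after *AFB3* (AT1G04973, 1.23, 0.937 to 1.62). *AFB2* has no annotated gene within 1 kb on either side, so its values are free of such overlap.

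The *MIR393* loci were described by the region of the stem-loop with 1 kb on each side, because the stem-loops alone hold few reads. The annotation gives the stem-loop and not the start of the primary transcript, so the 200 bp before it are upstream of the hairpin and not necessarily of the transcription start. ChIP over input was higher in *hyl1-2* over the region of *MIR393B* and the difference over that of *MIR393A* was not resolved by the counts. *MIR393B* held 378 and 426 input reads and 377 and 367 ChIP reads in WT and *hyl1-2*, for ratios of 0.469 (0.407 to 0.541) and 0.647 (0.562 to 0.743) and a fold change of 1.38 (1.13 to 1.68). *MIR393A* held 286 and 378 input reads and 284 and 287 ChIP reads, for ratios of 0.467 (0.396 to 0.550) and 0.570 (0.489 to 0.664) and a fold change of 1.22 (0.975 to 1.53). Both regions were below input in both genotypes, and their WT ratios were at the 15.9th and 15.6th percentile of 270 *MIR* regions. Both were above 1.2, as were 28.9% of those regions, with 10.4% below 0.8. The input of *hyl1-2* over that of WT was 0.878 at *MIR393B* and 1.03 at *MIR393A*. Without division by input the fold change was 1.21 (1.05 to 1.40) for *MIR393B* and 1.26 (1.07 to 1.48) for *MIR393A*. The 200 bp windows far from genes had medians of 0.61 in WT and 0.64 in *hyl1-2*, and only *MIR393B* in *hyl1-2* reached that level.

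Inside the region the loci differed in shape. At *MIR393B* the stem-loop held 37 and 58 input reads and 94 and 63 ChIP reads, a fold change of 0.683 (0.405 to 1.15), while from 200 to 1000 bp downstream of its start it held 163 and 186 input reads and 193 and 221 ChIP reads, a fold change of 1.60 (1.2 to 2.13). The downstream fold change was 2.35 times (1.3 to 4.25) that of the stem-loop and 1.87 times (1.07 to 3.26) that of the first 200 bp. At *MIR393A* the stem-loop held 41 and 42 input reads and 55 and 55 ChIP reads, a fold change of 1.56 (0.881 to 2.76), and the downstream window 109 and 152 input reads and 125 and 113 ChIP reads, a fold change of 1.04 (0.726 to 1.47). Its quotient of the downstream window to the stem-loop was 0.664 (0.340 to 1.3). These windows were set side by side after their values had been seen, and of 8 such quotients 3 had an interval without 1, all of them of *MIR393B*. These 3 share the downstream window, and the first 200 bp contain the stem-loop, so they are not independent of each other. Over the stem-loop *MIR393A* exceeded *MIR393B* by a quotient of 2.28 (1.06 to 4.94), the only 1 of 6 windows in which the loci differed beyond counting error. The inputs contribute to this quotient, since *hyl1-2* over WT input was 0.798 at the stem-loop of *MIR393A* and 1.22 at that of *MIR393B*. A lncRNA, AT3G08595, starts 885 bp after *MIR393B* and had a fold change of 1.53 (1.09 to 2.15).

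**Figure D3:**
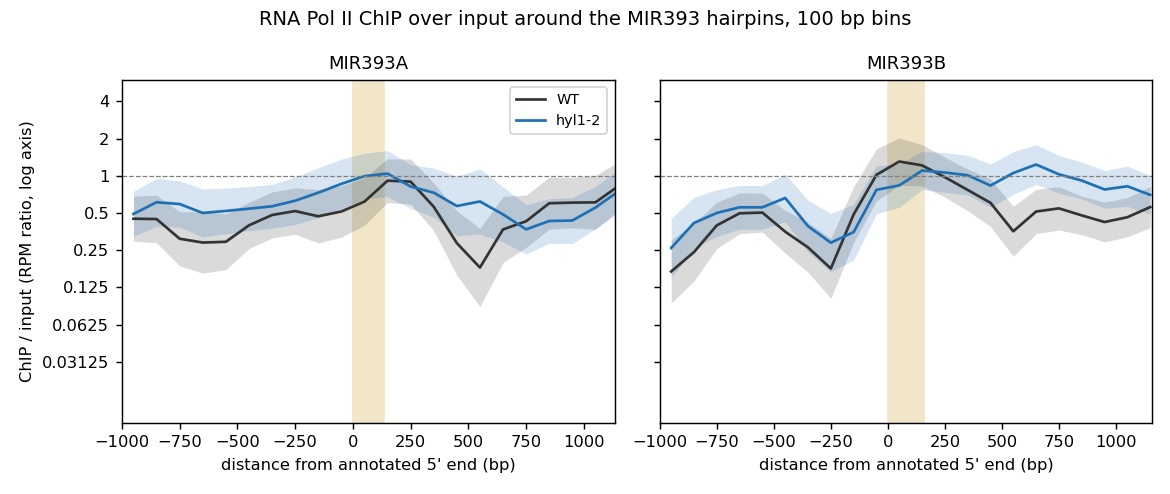
ChIP over input (RPM ratio, log axis) in bins of 100 bp around the stem-loops of *MIR393A* and *MIR393B* (pale bands), for WT (black) and *hyl1-2* (blue), with shading for the 95% counting interval. WT has its highest bin, 1.31, at the stem-loop of *MIR393B*, and past the stem-loop the blue line lies above the black one in 10 of 10 bins of *MIR393B* and 4 of 10 of *MIR393A*. Neighbouring bins share reads, and bins around other *MIR* loci were not counted.

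In the promoter windows of the *MIR393* loci the 2 genotypes did not separate. *MIR393B* held 35 and 59 input reads and 61 and 44 ChIP reads, for ratios of 0.820 (0.541 to 1.24) in WT and 0.560 (0.379 to 0.827) in *hyl1-2* and a fold change of 0.683 (0.386 to 1.21). *MIR393A* held 41 and 53 input reads and 48 and 50 ChIP reads, for a fold change of 1.29 (0.729 to 2.27). Thus 1 of the loci was above 1.2 and 1 below 0.8, where 37.7% of 268 *MIR* promoters were above and 25.7% below. Both directions depend on the setting, since *MIR393A* gave 0.963 (0.546 to 1.70) after the GC correction and 2.66 (1.14 to 6.21) when reads were counted by their midpoint, and *MIR393B* gave 1.19 (0.635 to 2.24) in the window from 300 to 100 bp upstream. The window of *MIR393B* is printed because the measured occupancy refers to it, with the letters TATAAA, read on either strand, in capitals.
MIR393B promoter (chr3:20691447-20691646, plus strand): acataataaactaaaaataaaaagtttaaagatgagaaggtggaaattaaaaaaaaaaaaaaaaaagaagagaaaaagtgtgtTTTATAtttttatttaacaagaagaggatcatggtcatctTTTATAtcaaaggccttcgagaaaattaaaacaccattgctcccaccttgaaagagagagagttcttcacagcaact
*MIR393B* held the letters 2 times on the minus strand, starting 117 and 77 bp before the stem-loop. The 4 receptor promoters held none. On either strand TATAAA occurred in 41.0% of all protein-coding promoters and 42.6% of all *MIR* promoters of the same length. The letters TGTCTC, known from auxin response elements, were in 0 of these 5 windows on either strand, against 8.94% and 11.96% of all such promoters. Without a match to TGTCTC, the motifs had no overlap.

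The receptors were set beside the other components of the pathway, given by lists chosen for their function, though with earlier results of these data known. Of 41 genes (3 relatives, 8 SCF subunits and regulators, 29 Aux/IAA genes and *bHLH77*) 24 were above 1.2 over the whole gene and 3 below 0.8, where 25.9% of all protein-coding genes were above and 21.4% below. The median fold change of the list was 1.22, against 0.958 over all protein-coding genes. Among the relatives, *AFB4* held 475 and 670 input reads and 1591 and 2296 ChIP reads. Its ratio went from 1.58 to 2.57, a fold change of 1.63 (1.43 to 1.87), and in both genotypes it was above that of each of the 4 receptors with a miR393 site. *AFB5* held 463 and 585 input reads and 791 and 1012 ChIP reads, a fold change of 1.62 (1.39 to 1.88). Fold changes above 1.2 were thus also found at the family members without a close match to miR393. *COI1* gave 1.18 (1.02 to 1.37) and *bHLH77* 1.21 (1.03 to 1.41).

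Of the SCF subunits and regulators, 6 of 8 were above 1.2 and 0 below 0.8, beside 25.9% and 21.4% of all protein-coding genes. *ASK1*, the adaptor that holds the F-box protein in the complex, had the highest fold change of these at 3.07 (2.47 to 3.82). Of the 29 Aux/IAA genes, the repressors that the receptors bind and many of which are themselves induced by auxin, 15 were above 1.2 and 3 below 0.8, beside the same 25.9% and 21.4%, with a median of 1.21. *IAA16* held 372 and 483 input reads and 422 and 2549 ChIP reads, a fold change of 7.43 (6.27 to 8.80). *IAA2* held 257 and 285 input reads and 362 and 1865 ChIP reads, a fold change of 7.42 (6.06 to 9.08). Both were below input in WT and 3.96 and 4.91 times input in *hyl1-2*. The lowest were *IAA8* with 0.744 (0.623 to 0.889) and *IAA31* with 0.776 (0.615 to 0.980). The receptors thus lay inside a list that ranged from 0.744 to 7.43. Scaling on windows far from genes left 39.0% of the 41 genes above 1.2 and put 17.1% below 0.8.

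**Figure D4:**
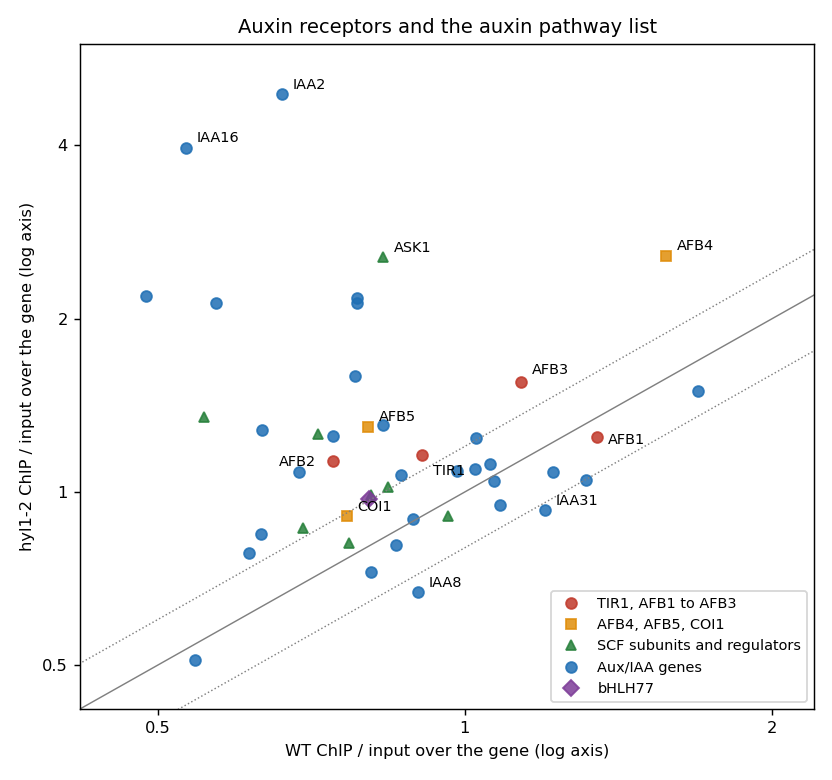
ChIP over input of whole genes in WT (horizontal) and *hyl1-2* (vertical), both on log axes, for the 4 receptors and the 41 genes of the pathway list. The solid line marks equal ratios and the dotted lines fold changes of 1.2 and 0.8, with *AFB2*, *AFB3* and *TIR1* above the upper dotted line, *AFB1* between the lines, and *IAA16* and *IAA2* at the top with fold changes of 7.43 and 7.42.

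The genes most like each receptor were sought over 10 values, the log2 ratio in 5 windows and 2 genotypes, among 22033 other protein-coding genes by Euclidean distance. For *TIR1* these were AT3G61200 (distance 0.580) and AT4G12290 (0.584), with a median distance of 3.06 over all genes compared. For *AFB1* they were AT5G66180 (0.449) and AT1G66910 (0.459), and for *AFB3* AT5G44080 (0.514) and AT4G11900 (0.674). None of the receptors was among these. Seen from *AFB3*, *AFB1* ranked 978th at a distance of 1.47 and *TIR1* 1381st at 1.56, with a median distance of 2.69. Seen from *TIR1*, *AFB3* ranked 1050th at 1.56 and *AFB1* 7500th at 2.61. *AFB2* was not compared because its promoter window held fewer than 10 reads in WT ChIP.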

How the data were processed

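RNA Pol II ChIP-seq of leaves of WT and *hyl1-2* plants was analysed from 4 deposited read lists, 1 input and 1 ChIP library per genotype. The paper states that raw reads were shortened to 50 bp and placed on TAIR10 by Bowtie (−M1 −n2). Duplicates were then taken out by SAMtools and each read was lengthened to 200 bp. The read lists depart from this, since the shortest interval, taken as the aligned length, was 50 bp in the inputs and 75 bp in ChIP. The intervals are 25 bp shorter in the inputs than in the 200 bp of the ChIP libraries and extend toward higher coordinates on both strands, which slightly raises the ChIP ratio of short windows but cancels in the fold change. The deposited score is the mapping quality of a read and served in 1 alternative. No unit other than positions and this score was used.

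Counting took every read with 1 bp or more inside a window, in Python 3.11.15 with NumPy 2.4.6, pandas 2.3.3 and SciPy 1.17.1, with figures from Matplotlib 3.10.9 and sequence alignments from Biopython 1.88. RPM used the full library totals, for the inputs 17734005 (WT) and 22766187 (*hyl1-2*) and for ChIP 37717174 (WT) and 30333558 (*hyl1-2*). Intervals at 95% came from the counts on a log scale and leave out variation between plants, and, with no molecular identifiers, reads need not be independent molecules. The annotation was RefSeq's for TAIR10, whose 5 nuclear chromosomes end where the reads end. The background was 27444 protein-coding genes and the 270 of 326 *MIR* loci that overlap no protein-coding gene on the same strand. Counting was checked directly on 400 promoter windows of the WT input, with 0 differences, and the fold change was tested on simulated counts. The promoter sequence of *MIR393A* is not reported here.

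The members, lists, windows and alternatives were chosen with earlier results of these data known. Named were the 6 members, *AFB4*, *AFB5* and *COI1*, the 2 highest and 2 lowest genes of the pathway list, genes within 1 kb of a member, and the 2 genes nearest to each receptor in pattern. *ASK1* and *bHLH77* were added, the former after its value was seen. Genes of leaves and of other organs served as a check of the tissue.

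Alternatives were totals of nuclear reads only, a scaling on 200 bp windows at least 1000 bp from any gene, only reads of a mapping quality above 0, ChIP without input, counting by the midpoint of the read, extension along the own strand of the read, a GC correction in bins of 2 percentage points, a window from 300 to 100 bp upstream, minimums of 50 reads and of 1 read, thresholds of 1.5 and its inverse, and calls by the interval.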

Additional observations from a re-analysis of the deposited data

Results flagged for a closer look

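*AFB2* is listed for a closer look because the genotypes lay on opposite sides of input over the whole gene. Its ratio was 0.743 (0.664 to 0.831) in WT and 1.13 (1.02 to 1.25) in *hyl1-2*, a fold change of 1.52. *AFB3* with 1 kb on each side is listed for the same reason, with 0.870 (0.793 to 0.956) in WT and 1.23 (1.14 to 1.34) in *hyl1-2*, a fold change of 1.42. With 1 library per condition, neither difference between the genotypes was tested. A ratio of 1 means equal RPM in ChIP and input and does not separate genes with and without RNA Pol II. The median was 1.03 in WT and 1.02 in *hyl1-2* over protein-coding genes, and 0.61 and 0.64 in 200 bp windows far from genes.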

How the results depend on the processing

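Of 258 fold changes of the 6 members under the alternatives, 257 moved by less than the counting interval and 0 with an interval beside 1 changed direction. The exception was the *MIR393A* promoter counted by read midpoints, at 2.66. Values whose interval held 1 crossed 1 under some alternatives, namely *AFB1* over the gene and its first 200 bp and several windows of *MIR393A* and *MIR393B*. Whole-gene fold changes ranged from 1.14 to 1.39 for *TIR1*, from 0.827 to 1.01 for *AFB1*, from 1.36 to 1.60 for *AFB2* and from 1.22 to 1.5 for *AFB3*, and the interval stayed above 1 in 6 of 7, 0, 7 and 7 of the alternatives. In shorter windows the interval came to hold 1 for *AFB3* in the promoter (1.90) and *TIR1* in the first 200 bp (2.02) with midpoints, for *AFB3* in the first 200 bp and downstream and *TIR1* from 200 to 1000 bp when scaled on windows far from genes (1.499, 1.25 and 1.297), and for *AFB3* in the first 200 bp (1.46) and *MIR393B* downstream (1.23) after the GC correction. Scaling on windows far from genes moved the median log2 fold change of promoters from 0.42 to 0.25 and of whole genes from −0.06 to −0.23, and so lowered every value alike. It put 4937 protein-coding promoters, 10979 whole genes and 7 genes of the pathway list below 0.8, against 3084, 5872 and 3.

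The GC correction put 9664 protein-coding promoters above 1.2 and 8365 below 0.8 (15487 and 3084 without it) and 49 *MIR* promoters above and 134 below (101 and 69 without it). With at least 50 reads these counts were 4509, 1359, 61 and 36, with calls by the interval 8149, 706, 46 and 22. With the threshold of 1.5, 1119 protein-coding promoters were below, 4020 whole genes above and 948 below (7111 and 5872 at 1.2 and 0.8), 54 *MIR* promoters above and 28 below, and 0 genes of the pathway list below. No division by input left 0 genes of that list below 0.8 and extension along the own strand 1. The causes were not tested, beyond the fewer windows at 50 reads and the stricter thresholds by construction.

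No paired analysis was possible because each condition has 1 library, and for the same reason no library was left out. Depth limits the short windows most, since the receptor promoters held 7 to 74 reads per library. The different interval lengths of input and ChIP do not affect fold changes.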
